A study of Solanum tuberosum with 8 samples.

Results

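Polyphenol oxidases are the copper enzymes that brown a cut potato tuber. The genes described here are those whose product name in the deposited annotation contained polyphenol oxidase or catechol oxidase and whose counts summed to at least 80 over the 8 libraries. The product words matched 3 genes, and all 3 passed the minimum, out of 32768 genes in the count table. They were LOC102604380 (polyphenol oxidase D), *PPO* (catechol oxidase B-like) and LOC102605738 (polyphenol oxidase, chloroplastic-like). All 3 carried a hit to the tyrosinase domain in the deposited Pfam column, and they were the only annotated genes with such a hit.

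The RNA came from mature tubers, taken after harvest, of the diploid potato population 12-3, an F1 progeny grown in pots and left untreated. RNA-seq was done on 4 bulks, each of which pooled tuber RNA from 6 plants, with 2 replicate libraries (A and B) per bulk. Bulk H1 had high tuber starch content (TSC) and high expression of *AGPaseS-a*, a gene of ADP-glucose pyrophosphorylase, the enzyme that makes the substrate of starch synthases. Bulk H2 had high TSC and low *AGPaseS-a* expression, L1 had low TSC and high *AGPaseS-a* expression, and L2 was low in both. The bulks differ in the genotypes of their plants, and every difference between bulks is a difference between pools of siblings. The labels do not say whether replicates A and B drew on the same 6 plants. The study's methods call the pair of each bulk biological replicates, and p-values measure only the spread between these libraries.

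Polyphenol oxidases hold a pair of copper ions in their active site and use oxygen to turn *o*-diphenols into quinones, which react on to brown and black pigments. The enzymes are made in the cytosol and sent to the plastid, where they lie in the thylakoid lumen. Their substrates are stored in the vacuole, so the reaction starts mainly when a cell is broken by cutting, bruising or chewing. In potato tubers the main substrates are chlorogenic acid, a product of the phenylpropanoid pathway, and the amino acid tyrosine. Low polyphenol oxidase activity is a breeding aim because it limits browning after peeling and black spot after bruising.

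Each gene lies on a scaffold of its own in the assembly SolTub_3.0, to which the authors aligned the reads. LOC102604380 lies on scaffold NW_006239471.1 from 143825 to 160896 on the minus strand, a span of 17.1 kb. The RefSeq gene table lists 2 transcripts for it. *PPO* lies on NW_006239117.1 from 1148643 to 1150641 on the plus strand and spans 2.00 kb. LOC102605738 lies on NW_006239015.1 from 826592 to 828922 on the plus strand and spans 2.33 kb. No annotated gene in the comparison files overlaps any of the 3 genes. The nearest annotated gene lies 6.99 kb from LOC102604380, 115 kb from *PPO* and 3.03 kb from LOC102605738. The exon structure and the sequences were not used here, so reads shared between similar copies, or with copies that the assembly lacks, could not be examined.

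The counts on genes summed to between 15293539 (H1 replicate A) and 31943185 (L1 replicate A) per library. The tuber label was checked by its storage markers. The 24 patatin genes, which encode the main tuber storage protein, summed to between 13468 and 25487 CPM (the count scaled to a TMM-adjusted library total) in every library, and the 2 granule-bound starch synthase genes, whose product makes amylose, to between 2022 and 4502 CPM. The 2 genes of the small subunit of Rubisco, a defining marker of green tissue, summed to at most 1.21 CPM. The 30 chlorophyll a-b binding protein genes summed to between 65.0 and 283 CPM. H1 replicate A and H2 replicate B stood apart from the other libraries, with transcripts of the plastid genome at 416 and 256 CPM against 40.7 to 70.4 CPM. The members' log2FCs in H1/L1 and H2/L2, and the medians of the gene lists there, are also given without the library that stood apart. For the other comparisons this was done for some values only. Bulk means and likeness are given over all libraries only.

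LOC102604380 was the most abundant member in every library. Levels are in CPM throughout, and an interval on a level covers counting error only. In H1 it stood at 117 CPM in replicate A and 56.7 CPM in replicate B. In H2 it stood at 68.7 and 48.3 CPM in replicates A and B. The L1 libraries were at 48.3 and 38.0 CPM and the L2 libraries at 55.1 and 30.4 CPM, in the same order. H1 replicate A was the highest of the 8 libraries and L2 replicate B the lowest, a 3.85-fold range. The order of the bulk means was H1 (87.0 ± 42.7 CPM), H2 (58.5 ± 14.4 CPM), L1 (43.1 ± 7.26 CPM) and L2 (42.7 ± 17.4 CPM; SD, n = 2 libraries each). H1 and H2 overlapped, as did H2 and L2 and L1 and L2, while both H1 libraries lay above both L1 libraries. The lowest H2 and the highest L1 library were both at 48.3 CPM. Averaged over the libraries, its level of 57.8 CPM lay above that of 85.1% of the 20389 genes tested.

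Replicate A was above replicate B for LOC102604380 in all 4 bulks, by 2.06-fold in H1, 1.42-fold in H2, 1.27-fold in L1 and 1.81-fold in L2. The same held for 3.38% of all genes tested, and the reverse for 4.14%. The labels do not say whether the letters mark a shared extraction, harvest or run.

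*PPO* was the next most abundant member, at 16.5 CPM on average over the libraries. The 2 libraries of H1 were almost equal, at 22.7 CPM in replicate A and 22.6 CPM in replicate B. The H2 libraries were at 21.7 and 15.2 CPM, the L1 libraries at 7.37 and 13.4 CPM and the L2 libraries at 17.9 and 11.5 CPM in A and B. Both H1 libraries thus lay above all others, and L1 replicate A was the lowest of the 8. The bulk means ran in the order H1 (22.7 ± 0.0489 CPM), H2 (18.5 ± 4.60 CPM), L2 (14.7 ± 4.54 CPM) and L1 (10.4 ± 4.27 CPM; SD, n = 2 each). H2 overlapped with L2 and L2 with L1, and the L1 libraries did not overlap with those of either high-TSC bulk. The near equality of the H1 libraries is closer than their counts can resolve. The exact 95% Poisson intervals were 20.1 to 25.5 CPM and 20.7 to 24.7 CPM.

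LOC102605738 was scarce and varied most. It had 38 and 12 counts in H1 replicates A and B, which are 3.02 and 0.560 CPM. H2 had 305 and 59 counts, or 10.8 and 2.53 CPM. L1 had 4 and 46 counts, or 0.125 and 1.57 CPM, and L2 had 30 and 129 counts, or 0.918 and 3.91 CPM. Replicate A was the higher one in both high-TSC bulks and replicate B in both low-TSC bulks. The higher replicate exceeded the lower one by 5.39-fold in H1, 4.26-fold in H2, 12.6-fold in L1 and 4.26-fold in L2. In each bulk the exact 95% Poisson intervals of the replicates, which cover counting error only, did not overlap. The bulk means were 6.67 ± 5.85 CPM in H2, 2.41 ± 2.11 CPM in L2, 1.79 ± 1.74 CPM in H1 and lastly 0.850 ± 1.02 CPM in L1 (SD, n = 2 each), and all neighbours in this order overlapped.

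**Figure D1:**
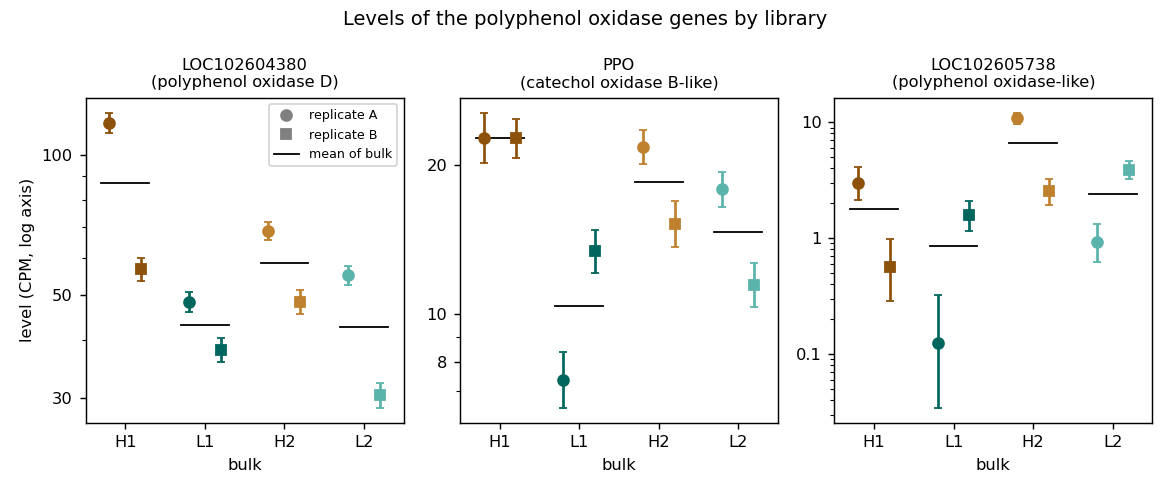
Level of each polyphenol oxidase gene (CPM, log axis) in the 2 libraries of each bulk, with exact 95% Poisson intervals of the counts as bars and the bulk means as lines. The H1 libraries of *PPO* sit together at 22.7 and 22.6 CPM, while LOC102605738 runs from 0.125 to 10.8 CPM with a gap between the replicates of every bulk.

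The spread between replicates differed among the 3 genes. The biological coefficient of variation, which edgeR estimates for each gene from its replicates, was 31.8% for LOC102604380 and 29.9% for *PPO*, against a median of 35.1% over all genes tested. It was 82.7% for LOC102605738, above that of 89.5% of the genes. Low-count genes tend to have a larger value. The summed level of 9 markers of the tuber skin was higher in the libraries with the most of this gene. The 9 genes, which encode suberization-associated anionic peroxidases, fatty acid hydroxylases of the CYP86A family and fatty acyl-CoA reductases, summed to 57.3 to 58.4 CPM in the 3 libraries with the most LOC102605738 (H2 replicate A, L2 replicate B and H1 replicate A) and to 21.0 to 41.0 CPM in the other 5. Taken singly, only 2 of the 9 skin genes were higher in all 3 of those libraries than in all others. The most abundant, LOC102583921, was at 22.9 to 27.6 CPM there and 10.5 to 14.8 CPM elsewhere, while *POPA* was lower in H2 replicate A (2.76 CPM) and L2 replicate B (2.03 CPM) than in H2 replicate B (7.82 CPM), and none of the 9 was at 0 in any library. The part of skin tissue in the level of LOC102605738 was not tested. In bulk RNA, fewer cells of a type and less RNA per cell cannot be told apart.

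LOC102604380 gave most of the counts of the family in each library. Its share of the counts on the 3 genes ran from 66.4% in L2 replicate B (exact Clopper-Pearson 95% interval 64.0 to 68.8%) to 86.6% in L1 replicate A (84.9 to 88.1%). That of *PPO* ran from 13.2% in L1 replicate A (11.7 to 14.9%) to 28.3% in H1 replicate B (26.2 to 30.5%). LOC102605738 held 0.225% in L1 replicate A (0.0613 to 0.575%) and 10.7% in H2 replicate A (9.57 to 11.9%). The count of *PPO* divided by that of LOC102604380 was lowest in L1 replicate A (0.153) and H1 replicate A (0.194) and lay between 0.315 and 0.399 in the other 6 libraries. Shares of counts are not shares of transcripts, because a longer transcript yields more fragments. Per kb of genomic span, *PPO* was at 8.28 CPM and LOC102605738 at 1.26 CPM, averaged over the libraries. LOC102604380 was at 3.39 CPM per kb of a span that includes introns of unknown length, so its rank beside *PPO* per length of transcript could not be set.

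**Figure D2:**
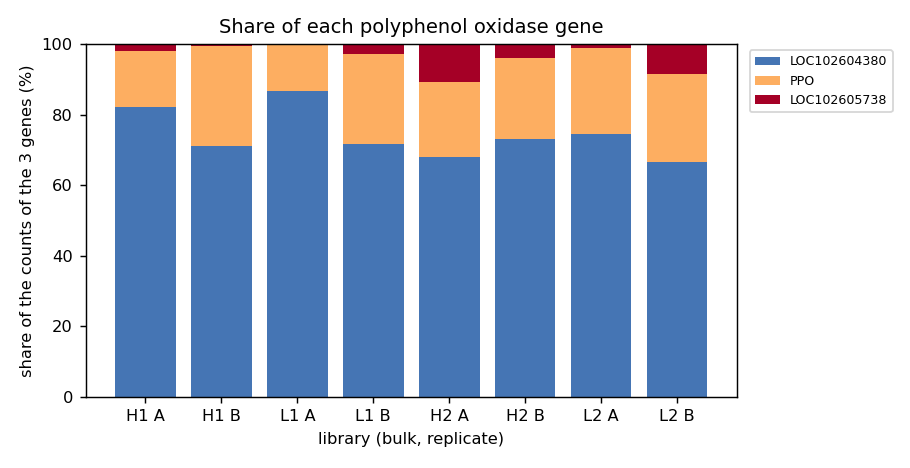
Share of each gene in the summed counts of the 3 polyphenol oxidase genes (%), 1 bar per library. LOC102604380 holds 66.4 to 86.6% of the counts, and LOC102605738 is visible mainly in H2 replicate A (10.7%) and L2 replicate B (8.54%).

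The summed level of the family was 143 and 79.9 CPM in H1 replicates A and B, 101 and 66.1 CPM in H2, 55.8 and 53.0 CPM in L1 and 73.9 and 45.8 CPM in L2. The bulk means of this sum were 111 ± 44.5 CPM (H1), 83.6 ± 24.9 CPM (H2), 54.4 ± 1.96 CPM (L1) and 59.8 ± 19.9 CPM (L2), with the SD of 2 libraries. The H1 libraries lay above all 4 low-TSC libraries, and H2 replicate B lay below L2 replicate A.

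The study compared H1 with L1 and H2 with L2 to find genes that differ between high and low TSC. A log2FC here is the low-TSC bulk over the high-TSC bulk, and calling a gene took both an FDR under 0.05 and a log2FC of 1.5 or more in either direction. No polyphenol oxidase gene was called in H1/L1 or in H2/L2 by edgeR's quasi-likelihood test, nor by DESeq2. At an unadjusted p under 0.05, 2 of the 3 genes were lower in L1 than in H1 and 0 of 3 differed in H2/L2. Over all genes tested, edgeR called 0% in either comparison, and DESeq2 called 37 of 20389 genes in H1/L1 and 26 in H2/L2. In H1/L1, 5.73% of all genes had an unadjusted p under 0.05 and 3.34% had it with the lower level in L1, and in H2/L2 the share in either direction was 2.36%.

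In H1/L1, *PPO* had a log2FC of -1.13 (standard error 0.383, 95% interval -2.00 to -0.25), which is a fold of 0.458. Its unadjusted p was 0.0181 and its FDR 0.789 from edgeR's quasi-likelihood test over all genes, the 344th lowest p of 20389. The log2FC was -1.12 without H1 replicate A and -1.12 without H1 replicate B. It was -0.75 without L1 replicate A (unadjusted p = 0.135) and -1.62 without L1 replicate B, so its size depended on which L1 library was kept. LOC102604380 had a log2FC of -1.01 (standard error 0.424, 95% interval -1.98 to -0.04), a fold of 0.497, with an unadjusted p of 0.0435 and an FDR of 0.789. Without H1 replicate A, the library that stood apart, it was -0.39 (unadjusted p = 0.367), and without H1 replicate B it was -1.43. Both genes had no overlap between the H1 and the L1 libraries, which was so in the same direction for 16.8% of all genes tested. LOC102605738 had a log2FC of -1.05 with a standard error of 1.30 (95% interval -4.02 to 1.93), and it was 0.60 without H1 replicate A. A difference in either direction of several fold was not detectable for this gene with these libraries. The skin markers also stood higher in H1 (57.8 and 37.8 CPM summed) than in L1 (21.0 and 32.1 CPM), with a negative log2FC for 6 of the 9. In H2/L2 the log2FC was negative for 3 of the 9. Their sums were 57.3 and 41.0 CPM in H2 and 39.4 and 58.4 CPM in L2. The part of the skin markers in the values of either comparison was not tested.

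In H2/L2 the values were smaller for the abundant pair. The log2FC was -0.45 (standard error 0.421, 95% interval -1.42 to 0.51) for LOC102604380 and -0.33 (standard error 0.378, 95% interval -1.20 to 0.53) for *PPO*. For LOC102605738 it was -1.47 (standard error 1.25, 95% interval -4.32 to 1.39). Their unadjusted p-values were 0.312, 0.403 and 0.272, and the FDR was 1.00 for each from edgeR's quasi-likelihood test. Replicates of H2 and L2 overlapped for all 3 genes, and 14.8% of all genes tested had no overlap with the lower level in L2. Without H2 replicate B, the library that stood apart, the log2FC was -0.69 for LOC102604380, -0.57 for *PPO* and -2.16 for LOC102605738. Leaving out each of the 4 libraries of the comparison in turn, LOC102604380 ran from -0.94 (without L2 replicate A) to -0.08 (without L2 replicate B) and *PPO* from -0.69 to -0.04 at the same libraries. LOC102605738 ran from -2.85 (without L2 replicate B) to -0.06 (without H2 replicate A).

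All 3 genes had a negative log2FC in both comparisons, as did 31.9% of all genes tested. Whether the change in H1/L1 differed from that in H2/L2 was tested by the interaction, and no member passed. The difference of the log2FCs was -0.79 for *PPO* (standard error 0.536), -0.56 for LOC102604380 (standard error 0.594) and 0.42 for LOC102605738 (standard error 1.79). Their unadjusted p-values were 0.176, 0.376 and 0.820, each with an FDR of 1.00 from edgeR's quasi-likelihood test. Over all genes, 0% were called in the interaction and 1.57% had an unadjusted p under 0.05, against 0 of the 3 members. The larger size in H1/L1 of the values of *PPO* and LOC102604380 was thus within the error of these libraries.

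With the bulks of each starch class averaged (H/L), *PPO* had a log2FC of -0.73 (standard error 0.269, 95% interval -1.35 to -0.11) and LOC102604380 of -0.73 (standard error 0.298, 95% interval -1.42 to -0.05). The unadjusted p-values were 0.0257 and 0.0389 and the FDR was 0.623 for both in edgeR's test. At an unadjusted p under 0.05 stood 2 of the 3 members and 7.84% of all genes tested, 4.75% with the lower level in the low-TSC class, and edgeR called 0%. The 4 libraries of the classes overlapped for both genes, and 2.82% of all genes had no overlap with the lower level in the low-TSC class. H2 replicate B, at 15.2 CPM, lay below L2 replicate A for *PPO*, and H2 replicate B, at 48.3 CPM, lay below L2 replicate A for LOC102604380. LOC102605738 had a log2FC of -1.26 (standard error 0.899, unadjusted p = 0.199). H/L uses the libraries of H1/L1 and H2/L2 and is no separate evidence for either. Leaving out both H1 replicate A and H2 replicate B gave a log2FC in H/L of -0.85 for *PPO* (unadjusted p = 0.0307) and -0.54 for LOC102604380 (unadjusted p = 0.0810). With 1 library left out, *PPO* ran from -0.97 (without L1 replicate B) to -0.54 (without L1 replicate A, unadjusted p = 0.0965). Its unadjusted p was 0.101 without L2 replicate B and 0.0827 without H2 replicate A. LOC102604380 ran from -0.97 (without L2 replicate A) to -0.42 (without H1 replicate A, unadjusted p = 0.151), and LOC102605738 from -2.61 (without L1 replicate B) to -0.44 (without H1 replicate A).

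**Figure D3:**
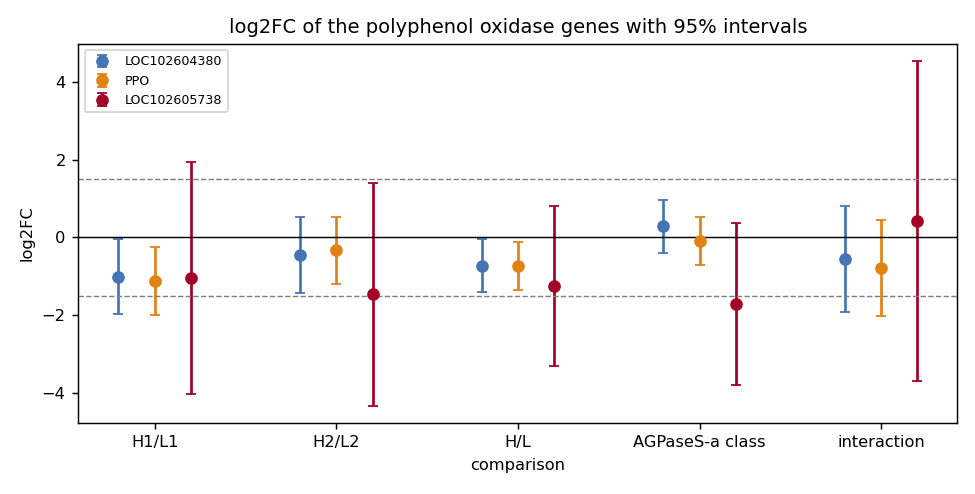
log2FC of the 3 genes in each comparison with 95% intervals from edgeR, where the dashed lines mark the 1.5 needed for a call. The intervals of *PPO* and LOC102604380 lie below 0 in H1/L1 and H/L before adjustment over all genes, and those of LOC102605738 span 0 throughout.

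**Figure D4:**
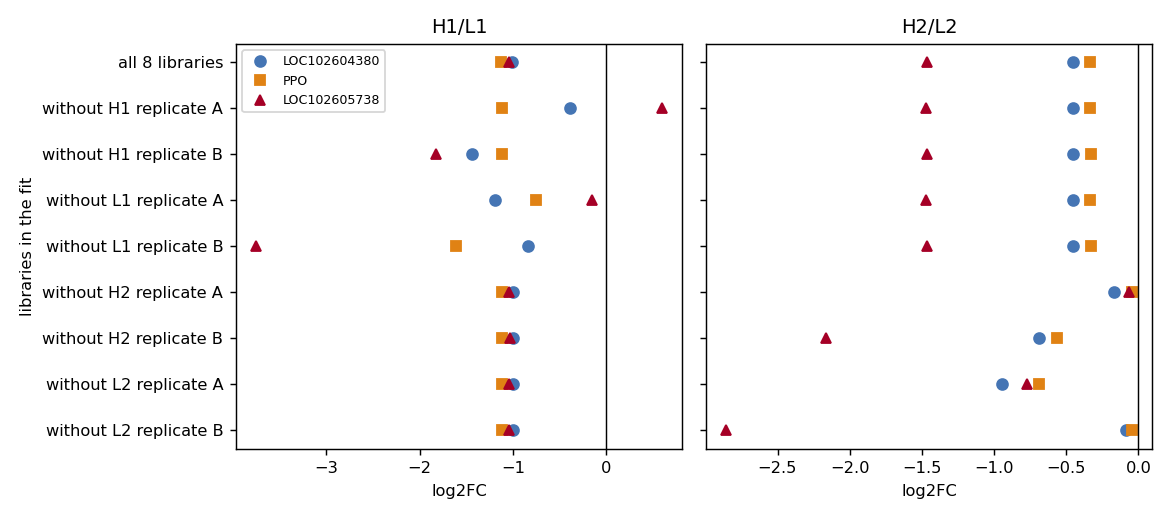
log2FC in H1/L1 and H2/L2 with all 8 libraries and with each library left out in turn. *PPO* stays between -1.62 and -0.75 in H1/L1, LOC102604380 moves to -0.39 without H1 replicate A, and LOC102605738 runs from -3.75 to 0.60.

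Plants of high *AGPaseS-a* expression (H1 and L1) were compared with those of low expression (H2 and L2), with a positive log2FC for a higher level in the high class. *PPO* averaged 16.5 CPM in the high and 16.6 CPM in the low class, a log2FC of -0.10 (standard error 0.267, 95% interval -0.71 to 0.51, unadjusted p = 0.715). LOC102604380 had a log2FC of 0.29 (standard error 0.297, 95% interval -0.39 to 0.97, unadjusted p = 0.354), which was -0.02 without H1 replicate A. LOC102605738 averaged 1.32 CPM in the high and 4.54 CPM in the low class, a log2FC of -1.72 (standard error 0.908, 95% interval -3.80 to 0.36, unadjusted p = 0.0937), and leaving out 1 library moved it from -3.07 (without L1 replicate B, unadjusted p = 0.0178) to -1.02 (without H2 replicate A, unadjusted p = 0.333). It was -2.54 (unadjusted p = 0.0438) without H1 replicate A and -2.07 without H2 replicate B, and 5 of its 16 alternatives had an unadjusted p under 0.05. The FDR of each was 1.00 in edgeR's quasi-likelihood test, and the libraries of the classes overlapped for all 3 genes. Of all genes tested, edgeR called 0.0049% in this comparison, and 3.13% had an unadjusted p under 0.05 against 0 of the 3 members. No overlap was seen for 1.3% of all genes with the lower and 0.961% with the higher level in the high class.

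The other genes of the browning reaction were taken by product name in 4 lists, and no gene of any list was called in H1/L1, H2/L2, H/L, the interaction or the *AGPaseS-a* comparison. The list of phenolic substrate supply covered phenylalanine ammonia-lyase, the entry enzyme of the phenylpropanoid pathway, and the next steps through the hydroxycinnamoyl transferases. Coumaroyl monooxygenases with their cytochrome P450 family, and caffeoylshikimate esterases, were also among its search words. So were chorismate mutase, arogenate dehydratases and dehydrogenases, and tyrosine aminotransferase. Of its 53 genes, 47 were tested. At an unadjusted p under 0.05 in H1/L1, 3.34% of all genes tested were lower and 2.39% higher in L1. In H2/L2, 1.32% were lower and 1.04% higher in L2. List counts from the fit to all 8 libraries are to be read against these shares. Medians without a library come from refits filtered anew. There the number of list genes tested can differ. In H1/L1, 4 of the 47 were lower in L1 and 0 higher at that threshold, and the median log2FC of the list was -0.25 against 0.02 over all genes. In H2/L2, 0 of the 47 passed that threshold, and the median was 0.03 against 0.01 over all genes. Without H1 replicate A the list median in H1/L1 was -0.50, against 0.02 over all genes. Without H2 replicate B the list median in H2/L2 was -0.27, against 0.01 over all genes.

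The 4 genes are named because they had an unadjusted p under 0.05 in H1/L1. LOC102590870 is annotated as cytochrome P450 98A2-like, a family that adds the second ring hydroxyl on the way to chlorogenic acid. LOC102590870 was at 31.0 and 31.0 CPM in the H1 libraries and 8.37 and 15.0 CPM in the L1 libraries. Its log2FC was -1.41 (standard error 0.362, unadjusted p = 0.00432, FDR 0.789 in edgeR's test). LOC102605307, a trans-cinnamate 4-monooxygenase-like gene, was at 132 and 102 CPM in H1 and 60.9 and 76.4 CPM in L1 (log2FC -0.77, standard error 0.261), and its log2FC was -0.57 (unadjusted p = 0.0780) without H1 replicate A. LOC102596891 (phenylalanine ammonia-lyase 1) had a log2FC of -1.25 (standard error 0.469) and LOC102584603 (4-coumarate--CoA ligase 2) of -0.80 (standard error 0.310), the latter with an unadjusted p of 0.0639 without H1 replicate A. The most abundant genes of the list were LOC102596017, a phenylalanine ammonia-lyase-like gene with means of 348 ± 86.8, 181 ± 67.9, 260 ± 109 and 191 ± 69.7 CPM for H1, L1, H2 and L2 (SD over 2 libraries), and LOC102605644, a trans-cinnamate 4-monooxygenase, with 88.4 ± 17.8, 129 ± 37.5, 96.1 ± 23.4 and 99.1 ± 26.5 CPM in the same order. In H1/L1 their log2FCs were -0.94 (standard error 0.431) and 0.55 (standard error 0.335), so the most abundant genes of the list differed in sign.

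The list of other phenol-oxidising enzymes held laccases, which are copper enzymes of the cell wall, and secreted peroxidases, which oxidise phenols with hydrogen peroxide. Of its 74 genes, 50 were tested. In H1/L1, 2 were lower and 1 higher in L1 at an unadjusted p under 0.05, with a median log2FC of -0.29 against 0.02 over all genes. In H2/L2, 0 were lower and 1 higher, with a median of -0.05. Without H1 replicate A the list median in H1/L1 was -0.05, and without H2 replicate B that in H2/L2 was -0.003. With all 8 libraries, the gene higher at that threshold in both L1 and L2 was LOC102594915 (peroxidase 45-like). It was at 2.86 CPM in H1, 8.13 CPM in L1, 3.84 CPM in H2 and 12.9 CPM in L2 (bulk means). It lies on the same scaffold as *PPO*. *POPA*, a suberization-associated anionic peroxidase, and LOC107057722, a peroxidase 49-like gene, were the pair lower in L1. *POPA*, which is also a skin marker, had a log2FC of -1.74 (standard error 0.619), and LOC107057722 was at 1.98 and 0.187 CPM in the H1 libraries and 0.0627 and 0.103 CPM in the L1 libraries. The most abundant gene of the list, LOC102596217 (peroxidase 42-like), was at 679 ± 204 CPM in H1, 854 ± 24.0 CPM in L1, and H2 and L2 averaged 811 ± 107 and 774 ± 5.41 CPM (SD over 2 libraries). LOC102592844 (peroxidase 51) came next, at 42.0 and 20.6 CPM in the H1 libraries, 40.9 and 32.0 CPM in L1, 30.5 and 30.8 CPM in H2 and 27.6 and 34.6 CPM in L2.

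Small carrier proteins and membrane pumps move copper within the cell, to the plastid and to other parts. The list was not limited to the plastid, and 15 of 18 such genes, plastocyanin-like ones included, were tested. In H1/L1, 1 was lower in L1 at an unadjusted p under 0.05 and 0 were higher, and in H2/L2 none was past that threshold in either direction. The median log2FCs were 0.12 and -0.19, against 0.02 and 0.01 over all genes. Without H1 replicate A the list median in H1/L1 was 0.15, and without H2 replicate B that in H2/L2 was -0.15. LOC102597804, a homolog of the copper carrier ATX1, was at 14.0 and 14.8 CPM in the H1 libraries and 6.80 and 5.03 CPM in the L1 libraries, a log2FC of -1.29 (standard error 0.460). LOC102580838, also ATX1-like and the most abundant of the list, was at 190 CPM in H1 replicate A, 56.6 CPM in H1 replicate B, 68.0 CPM in L1 replicate A and 36.0 CPM in L1 replicate B. As for LOC102604380, H1 replicate A was the highest of the 8 libraries. LOC102603262, the copper-transporting ATPase RAN1, averaged 69.3 ± 20.1 CPM over the H1 libraries and 74.9 ± 2.20 CPM over the L1 libraries (SD). The pumps with chloroplastic in their product name were LOC102582410 (PAA1), LOC102597236 and LOC102600832 (both PAA2-like). Their log2FCs in H1/L1 were 0.18 (standard error 0.242), 0.23 (standard error 0.386) and -1.04 (standard error 0.558).

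Ascorbate turns the quinones back into phenols, and the last list joined enzymes of ascorbate with further copper oxidases, of which 27 of 33 genes were tested. In H1/L1, 1 was lower and 1 higher in L1 at an unadjusted p under 0.05, and in H2/L2 1 was lower and 0 higher, with median log2FCs of -0.14 and -0.16. Without H1 replicate A the list median in H1/L1 was -0.05, and without H2 replicate B that in H2/L2 was -0.21. The cytosolic ascorbate peroxidases LOC102578720 and *APX* were the most abundant. *APX* averaged 371 ± 87.6 CPM and 255 ± 16.2 CPM in H1 and L1, and 316 ± 35.1 CPM and 213 ± 2.39 CPM in H2 and L2 (SD over 2 libraries), with a log2FC in H/L of -0.55 (standard error 0.186, unadjusted p = 0.0169, FDR 0.623 in edgeR's test). LOC102578720 was at 237 ± 10.2 CPM in H1, 275 ± 6.47 CPM in L1, 301 ± 97.0 CPM in H2 and 360 ± 26.4 CPM in L2. The pair past an unadjusted p of 0.05 in H1/L1 were low-count genes, namely LOC102595490 (L-ascorbate oxidase homolog, 0.469 CPM in H1 and 2.22 CPM in L1 on average) and LOC102583802 (primary amine oxidase-like, 0.602 CPM in H1 and 0 CPM in L1).

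**Figure D5:**
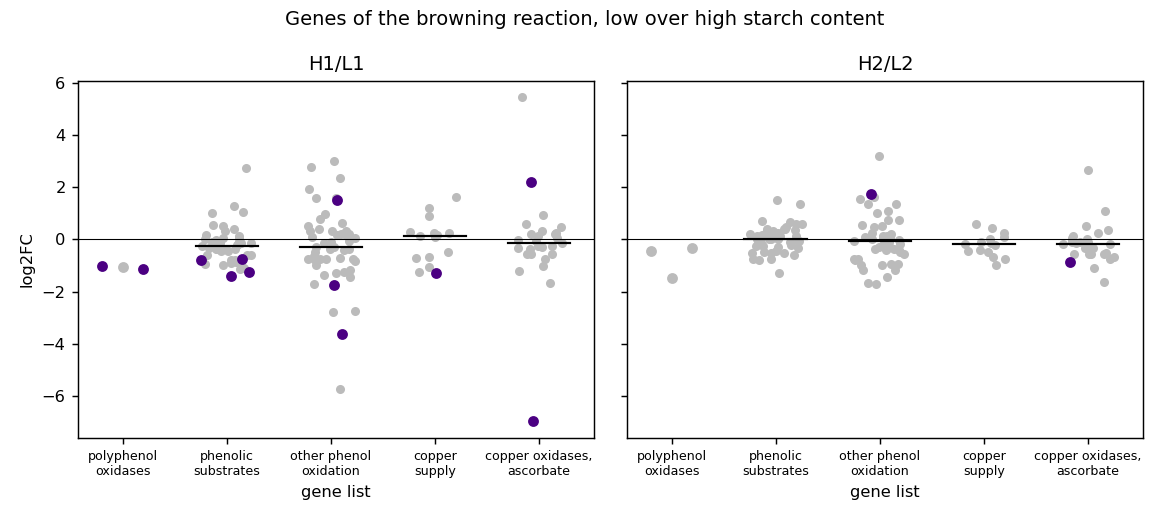
log2FC of every tested gene in H1/L1 and H2/L2 for the polyphenol oxidases and the 4 lists, with purple points at an unadjusted p under 0.05, grey points for the rest and lines at the list medians. In H1/L1 the 4 purple points of phenolic substrate supply and the 2 purple polyphenol oxidases all lie below 0, and in H2/L2 these groups have none.

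Likeness to LOC102604380, the member with the highest mean level, was measured by Pearson's r of log2(CPM + 2) over the 8 libraries, as a description of these libraries only. The 5 genes most alike were LOC102602971 (plant intracellular Ras-group-related LRR protein 7-like, r = 0.987), LOC102590482 (F-box/kelch-repeat protein At3g23880-like, r = 0.980), LOC102604543 (plasmodesmata callose-binding protein 1-like, r = 0.974), LOC102594805 (double-stranded RNA-binding protein 4-like, r = 0.961) and LOC102588850 (uncharacterized, r = 0.956). LOC102602971, LOC102604543 and LOC102588850 averaged under 3 CPM. Between members, r was 0.65 for LOC102604380 and *PPO*, higher than for 90.1% of the genes with LOC102604380. It was 0.19 for LOC102604380 and LOC102605738, higher than for 63.8% of the genes with LOC102604380. For LOC102605738 and *PPO* it was 0.40, higher than for 89.5% of the genes with LOC102605738. Spearman's rho of these pairs, in the same order, was 0.905, 0.167 and 0.238. All points of a pair share their library and its scaling.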

How the data were processed

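The authors deposited raw counts in 1 table of the series and 4 tables of H1/L1 and H2/L2, which repeat the counts (192484 of 192484 values equal) and hold product names, positions and the authors' fold changes, p-values and FDR, none of which was used. Per the labels and the methods, reads were trimmed with Trimmomatic, aligned with TopHat2 2.0.9 (Bowtie2 2.1.0) to SolTub_3.0, and HTSeq counted them by gene. The deposited counts are not normalized. How strand was handled in counting was not stated, and 2 columns that match no sample were not used. Libraries were assigned to bulks by their trait label.

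Genes were filtered with filterByExpr (20389 of 32768 kept, all 3 members among them), scaled by TMM and tested with edgeR 4.0.16 (R 4.3.3, glmQLFit and glmQLFTest), with 1 mean per bulk over all 8 libraries and Benjamini-Hochberg adjustment over all genes tested. The contrasts were L1 minus H1, L2 minus H2, their average (H/L), their difference (interaction) and high minus low *AGPaseS-a* expression. Calls followed the study's thresholds (FDR below 0.05, log2FC of 1.5 or more in size). The procedure was tested on simulated data. It called 85 of 197 changed genes in H1/L1 and 89 of 195 in H2/L2, with 4 unchanged genes called in each. A gene that is not called may thus still differ. These shares are not split by the size of the log2FC. With the 8 libraries themselves, edgeR called 0 genes in H1/L1 and 0 in H2/L2. All member log2FCs in H1/L1 and H2/L2 were under 1.5 in size. How often a gene with a log2FC of that size would be called was not tested. Depth was 15293539 to 31943185 counts per library, and intervals on single counts cover counting error only. The members and gene lists were chosen with earlier results of these data known. Named are all members, the 5 genes most like the most abundant member and the 2 most abundant genes of each list. Chosen after their values were seen were list genes at an unadjusted p under 0.05 and the genes most like the other members. The copper pumps with chloroplastic in their product name were also named after their values were seen. The alternatives were DESeq2 1.42.0, RLE factors, library totals, other filters, the 4 libraries of a comparison, a replicate block, libraries left out and other thresholds. The list medians without H1 replicate A or H2 replicate B were added after seeing the data.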

Additional observations from a re-analysis of the deposited data

Results flagged for a closer look

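In the high-TSC class, *PPO* was at 15.2 CPM in H2 replicate B, below the other 3 libraries at 21.7 to 22.7 CPM. Its distance from the next library made up 0.869 of their range, which is past Dixon's 95% critical value for 4 samples. About 1 in 20 groups drawn from a single population would be past it by chance. The 3 genes were examined in 4 classes of 4 libraries each. Each class joins libraries of different bulks, and the classes share libraries, so that rate is not exact here. H2 replicate B is also the library with 256 CPM of plastid genome transcripts, and the part of that in the level of *PPO* was not tested.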

How the results depend on the processing

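No alternative that used the FDR called a polyphenol oxidase gene. With an unadjusted p under 0.05 in place of the FDR and no fold threshold, 2 members were called in H1/L1 and 2 in H/L. Over all genes tested, 5.73% in H1/L1 and 7.84% in H/L had such a p in edgeR's test. In H1/L1, H2/L2 and H/L the sign changed only for LOC102605738 in H1/L1, to 0.60 without H1 replicate A and 0.59 without H1 replicate A and H2 replicate B. With those 2 libraries left out, LOC102604380 was at -0.12 in the *AGPaseS-a* comparison and 0.29 in the interaction. Leaving out 1 library at a time, LOC102604380 ran from -0.02 to 0.54 in the *AGPaseS-a* comparison and from -0.98 to 0.06 in the interaction, *PPO* from -0.35 to 0.083 in the *AGPaseS-a* comparison, and LOC102605738 from -3.75 to 0.60 in H1/L1 and from -2.28 to 2.06 in the interaction, where it was 2.75 without both libraries that stood apart. Library totals in place of TMM moved the median log2FC of all genes by 0.13 in H1/L1 and 0.11 in H2/L2, and the log2FC of *PPO* in H1/L1 was then -0.98.

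The replicate letters are not stated to pair the libraries, and the A minus B differences correlated across genes at 0.20 for H1 and L1, at -0.13 for H2 and L2 and at -0.54 for H1 and H2. With the replicate block, 762 genes had an unadjusted p under 0.05 in H1/L1 (1168 without it) and 351 in H2/L2 (481 without it), and the log2FC of *PPO* in H1/L1 was -1.11. That of LOC102604380 was then -0.93 in H1/L1 (standard error 0.290) and -0.71 in H/L (standard error 0.204). Its unadjusted p-values were 0.0145 and 0.00977, with FDRs of 0.905 and 0.798 in edgeR's quasi-likelihood test. A replicate block with the H2 letters crossed, chosen after seeing the data, gave 1580 and 665 such genes with 0 calls in either comparison, 3 genes called in H/L (0 without a block), and LOC102605738 was at -0.60 in the interaction. DESeq2 called 37 genes in H1/L1 and 26 in H2/L2, where edgeR called 0.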

Other observations

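Likeness over the 8 libraries was also taken for the other members, after their values had been seen. The gene most like *PPO* among the 20389 tested was LOC102590870 (cytochrome P450 98A2-like), with Pearson's r of 0.949 and Spearman's rho of 0.905 for log2(CPM + 2). Almost level with it were LOC102580094 (alpha-taxilin, r = 0.948) and LOC102589645 (receptor-like protein kinase BRI1-like 3, r = 0.948). LOC102586314 (senescence-associated carboxylesterase 101-like, r = 0.939) and LOC102602854 (ethylene-responsive transcription factor RAP2-4-like, r = 0.939) came next. LOC102590870 was at 30.4 and 18.5 CPM in the H2 libraries and 21.0 and 19.7 CPM in the L2 libraries. Like *PPO*, it had its lowest level in L1 replicate A. For LOC102605738 the gene most alike was LOC102589756, a histone H3.2 gene with a mean of 0.969 CPM (r = 0.975). LOC102579426 (cytochrome P450 81D11-like, r = 0.958), LOC102589101 (no product name, r = 0.954) and LOC102605803 (uncharacterized, r = 0.950) followed. The last of the 5 was LOC102597781, a phenylalanine ammonia-lyase-like gene (r = 0.943). It was at 14.2 CPM in H2 replicate A, 8.72 CPM in L2 replicate B and 0.700 to 5.03 CPM elsewhere. These are the highest of 20389 values each, taken over libraries that share bulks, so they are given with no test.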
